A study of Mus musculus with 4 samples.

Results

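Mitogen-activated protein (MAP) kinases are the last step of tiered kinase cascades that carry signals from growth factors, cytokines and stress to the nucleus. They form the ERK, JNK and p38 groups, and each is switched on when an upstream MAP2K phosphorylates it on a threonine and a tyrosine. In myeloid cells the p38 kinases act in cytokine production and in neutrophil and macrophage responses, and the ERK and JNK kinases act in proliferation and stress responses. The 7 genes described here were Mapk3 (ERK1), Mapk8 and Mapk9 (JNK1 and JNK2), and the p38 genes Mapk14 (alpha), Mapk11 (beta), Mapk12 (gamma) and Mapk13 (delta). They were selected by the gene symbol of the platform annotation, and Mapk13 was chosen for its higher signal in these data. Its values are therefore a description without a test. Of the 7 genes, 6 had a named probe set on both array types, out of 12393 such genes in all, and Mapk3 is not analysed here.

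The arrays carried RNA of granulocyte/monocyte progenitors (GMP), bone marrow cells sorted by flow cytometry from mice of 10 to 16 weeks. The Icsbp-deficient group, from mice deficient in the transcription factor Icsbp (Irf8), had 2 arrays, each from at least 8 pooled mice. The wild type group had 2 arrays, each from at least 10 pooled mice. Each group had 1 array of the 430A type and 1 of the larger MOE430_2 type. For the wild type 430A array the label states a mixed C57/Bl6 and S129Ola background but no genotype, and its group comes from the series' design text, where the first wild type preparation is on that array type. The labels of the other 3 arrays name no strain, and no source used here says which part of Icsbp was deleted. Irf8 itself (1416714_at) read 3059 in wild type against 2776 in Icsbp-deficient GMP on 430A, and 4798 against 2725 on MOE430_2, in the scaled signals defined below. Its other probe set, 1448452_at, read 3074 against 3234 and 1847 against 1892. Both still gave signal in Icsbp-deficient GMP, so they do not check the genotype labels. Because mice were pooled and no array was repeated, the spread reported below is that between 2 array types. The arrays of a group also had different replicate numbers, so array type cannot be told apart from preparation. A moderated SE draws on the variance of other probe sets as well. Lower signal from fewer cells of a kind cannot be told apart from less RNA per cell.

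The 6 genes had 14 probe sets on both array types and 5 more on the MOE430_2 type alone. Signals are given after scaling every array to a trimmed mean of 500. Log2 ratios are Icsbp-deficient over wild type within an array type, taken after an offset of 50 was added. For probe sets on both types, the 2 arrays of a type were then quantile normalized. Ratios of probe sets on the MOE430_2 type alone had the same scaling and offset but no quantile normalization. The offset shrinks ratios of dim probe sets. Probe sets with a mean in the lowest 40% were not tested, which left 9 of the 14, from 4 genes. Array signals of different probe sets are not comparable as levels, so each gene is compared only with itself.

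The labelled cell type was checked against its markers. The azurophil granule genes Mpo, Elane, Prtn3 and Ctsg had scaled signals of 13750 or more on every array, and the receptor genes Kit and Csf1r read 2148 or more. Markers of other lineages were not absent. Of 11 lymphoid marker genes with a probe set 8 lay below the filter, but Nkg7 read between 4919 and 6228. Of 8 erythroid genes only 2 lay below it, and wild type Car2, a carbonic anhydrase gene, read 703 and 1086. Cd34 fell by 1.73 ± 0.13 (moderated SE, n = 2 ratios) and Fcgr3 rose by 1.00 ± 0.11 on the log2 scale.

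Mapk13 encodes p38 delta and lies next to Mapk14 on mouse chromosome 17, with no protein-coding gene between them in the RefSeq gene table. Because Icsbp (Irf8) is an interferon regulatory factor, the stretches before their first annotated starts are shown, as a description of this adjacent pair. Mapk13 was picked for its rise, and the difference between its ratio and that of Mapk14 (below) was not tested. The stretches are RefSeq sequences of GRCm38.p6, plus strand, 5′ to 3′, with CG dinucleotides in capitals. The Mapk13 stretch is chr17:28769067-28769285 (219 bases) and the Mapk14 stretch is chr17:28691092-28691341 (250 bases). The Mapk13 stretch is the shorter because it ends where the gene table begins the gene, upstream of the start on which its promoter window is placed. The stretches are therefore not matched in length, and over whole windows of 300 bases Mapk13 had 34 CG dinucleotides and the first Mapk14 start 33.
Mapk13: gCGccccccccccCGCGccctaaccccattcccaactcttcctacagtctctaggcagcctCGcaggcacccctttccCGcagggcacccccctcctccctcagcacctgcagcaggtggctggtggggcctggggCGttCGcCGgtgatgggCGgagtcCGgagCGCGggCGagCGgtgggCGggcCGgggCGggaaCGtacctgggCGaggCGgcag
Mapk14: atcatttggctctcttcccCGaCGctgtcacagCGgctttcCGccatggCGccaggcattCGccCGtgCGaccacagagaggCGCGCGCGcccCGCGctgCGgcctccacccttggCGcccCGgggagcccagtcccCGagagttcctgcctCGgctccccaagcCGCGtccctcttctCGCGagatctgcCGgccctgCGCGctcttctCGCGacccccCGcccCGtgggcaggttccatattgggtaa

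Both stretches are rich in G and C, at 74.4% for Mapk13 and 70.4% for Mapk14. Whole promoter windows of 300 bases, from 250 before to 50 after a start, were in the table for 6 of the 7 genes, in 8 windows. The Mapk13 window had a higher GC content than 98.1% of the 32851 promoter windows in that table. The first Mapk8 window was close to it, above 97.9% of them. Both strands were searched for 3 motifs. The paired interferon regulatory factor half-sites GAAANNGAAA were found in 3.44% of all windows and in 1 of the 8 windows of the family, the second Mapk14 start. The composite ETS and interferon regulatory factor site GGAANNGAAA was in 2.72% of all windows and in 0 of the 8. The PU.1 box GAGGAAGT was in 3.2% of all windows and in 0 of the 8. A match is a string of letters in a short window, and the absence of one says nothing of what binds elsewhere.

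Among the family's probe sets on both array types, that of Mapk13 had the highest log2 ratio. A Mapk14 probe set on the MOE430_2 type alone (1442364_at, below) had 1.59, and without the offset it rose more there than Mapk13. The 1 Mapk13 probe set (1448871_at) read 7.72 in wild type against 165 in Icsbp-deficient GMP on 430A, and 46.1 against 242 on MOE430_2. Both Icsbp-deficient arrays were above both wild type arrays, whose signals lay below the offset of 50. The log2 ratio of Mapk13 was 1.90 on 430A and 1.63 on MOE430_2, a mean of 1.77 ± 0.19 (SD of the 2 ratios, n = 2), or 3.40-fold on this scale. Without the offset the scaled signals stood in a ratio of 21.4 on 430A and 5.25 on MOE430_2, so the size depends on how a dim wild type signal is treated. The direction was the same on both types.

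**Figure D1:**
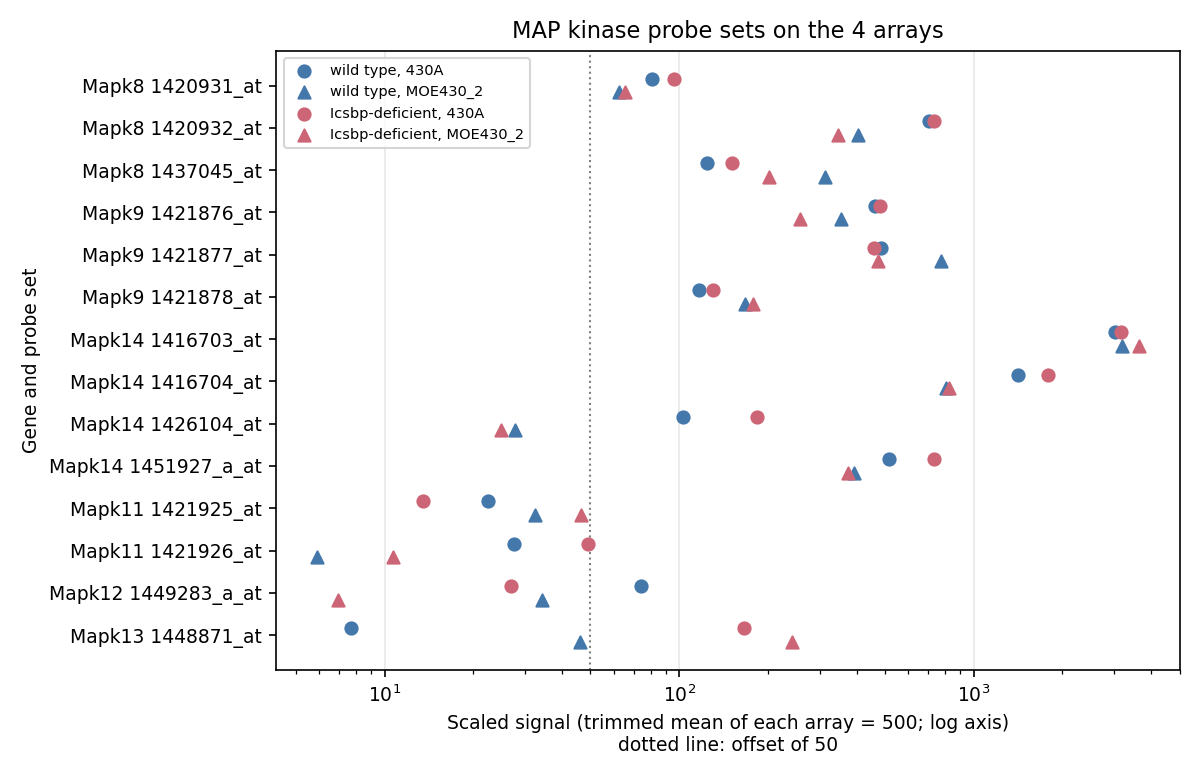
Scaled signal (horizontal log axis, trimmed mean of each array 500) of the 14 MAP kinase probe sets on both array types. Blue marks wild type and red Icsbp-deficient arrays, circles are 430A and triangles MOE430_2 arrays, and each point is 1 array. The red Mapk13 points, at 165 and 242, sit to the right of the blue ones, at 7.72 and 46.1, while both colours lie close together for the Mapk14 probe set 1416703_at.

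Against the rest of each array, wild type Mapk13 stood at the 6.50th percentile of all 22626 shared probe sets on the 430A and the 35.1th on the MOE430_2 array. In Icsbp-deficient GMP it stood at the 48.9th and 60.5th. Its mean log2 signal was 6.21 in wild type against 7.98 in Icsbp-deficient GMP, and the filter lay at 6.99, so the probe set passed only through the Icsbp-deficient arrays. Of 7820 tested genes, 13 had a higher mean ratio than Mapk13. This place describes why the gene was picked and is no evidence for it.

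Mapk14 encodes p38 alpha, the broadly expressed p38 kinase that the classical p38 inhibitors target. Its probe set 1416703_at read 3025 in wild type against 3149 in Icsbp-deficient GMP on 430A, and 3188 against 3628 on MOE430_2. The Icsbp-deficient reading was the higher on both types, by a log2 ratio of 0.07 and 0.15, and the mean of 0.11 ± 0.11 (SE) did not pass the test (limma adjusted p = 0.666). The 95% interval of the ratio ran from -0.14 to 0.36. The mean ratio of Mapk13 was 1.77 by comparison, and the difference between these neighbours was not tested.

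The other Mapk14 probe sets on both types were higher on the 430A arrays and close to equal on the MOE430_2 arrays. Probe set 1416704_at read 1417 and 1788 on 430A and 804 and 824 on MOE430_2, wild type first, for a mean ratio of 0.19 ± 0.14 (limma adjusted p = 0.521). Probe set 1451927_a_at read 514 and 731, then 394 and 375, for a mean of 0.22 ± 0.17 (limma adjusted p = 0.559). Its ratios were 0.46 on 430A and -0.03 on MOE430_2, so the array types differed in sign. The dim 1426104_at followed the same order, with 0.60 and -0.05, and was not tested.

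On the MOE430_2 type alone, 2 further Mapk14 probe sets went in opposite directions. Probe set 1442364_at read 25.2 in wild type against 177 in Icsbp-deficient GMP, a log2 ratio of 1.59, and 1459617_at read 207 and 125, a ratio of -0.56. These are single arrays without a replicate, and 1442364_at was singled out after its value was seen. A ratio of 1 or more was reached by 134 of the 22411 probe sets found on this type alone (0.598%). The files do not say which Mapk14 transcripts these probe sets read.

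Mapk11 encodes p38 beta and Mapk12 encodes p38 gamma, and these genes are also adjacent, on chromosome 15. Both Mapk11 probe sets were below 50 on all 4 arrays. Probe set 1421925_at read 22.5 and 13.5 on 430A and 32.4 and 46.3 on MOE430_2, and 1421926_at read 27.6 and 49.1, then 5.92 and 10.7. The genotypes had no common order for the first, and the second was higher in Icsbp-deficient GMP on both types at signals where the offset dominates. Mapk12 (1449283_a_at) read 74.0 in wild type against 26.9 in Icsbp-deficient GMP on 430A, and 34.3 against 6.93 on MOE430_2. Its log2 ratios of -0.67 and -0.57 were both negative, opposite in sign to those of Mapk13, and the probe set was not tested because its signal was below the filter. A second Mapk12 probe set, on the MOE430_2 type alone, read 7.79 and 10.7.

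Mapk8 and Mapk9 encode the c-Jun N-terminal kinases that are found in most tissues. The Mapk8 probe set 1420932_at read 703 and 732 on 430A and 406 and 346 on MOE430_2. Its mean ratio was -0.06 ± 0.15 (limma adjusted p = 0.873), with a 95% interval from -0.41 to 0.28. Probe set 1437045_at read 124 and 151, then 313 and 202, so the genotypes changed order between array types, with a mean of -0.14 ± 0.21 (limma adjusted p = 0.781). The dim 1420931_at had ratios of 0.16 and 0.07, and the probe sets 1440856_at and 1457936_at, on the MOE430_2 type alone, had -0.46 and -0.26.

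The lowest mean ratio among the tested family members belonged to Mapk9. Its probe set 1421877_at read 486 in wild type against 459 in Icsbp-deficient GMP on 430A, and 772 against 473 on MOE430_2. The ratio was near 0 on the first type, at -0.08, and -0.63 on the second, and the mean of -0.35 ± 0.17 did not pass (limma adjusted p = 0.316, unadjusted p = 0.0691). Probe set 1421876_at gave -0.15 ± 0.17 (limma adjusted p = 0.696), with 463 and 482 on 430A and 355 and 258 on MOE430_2. Probe set 1421878_at gave 0.11 ± 0.19, with 117 and 131, then 168 and 178, so the 3 probe sets of the gene did not share a sign.

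**Figure D2:**
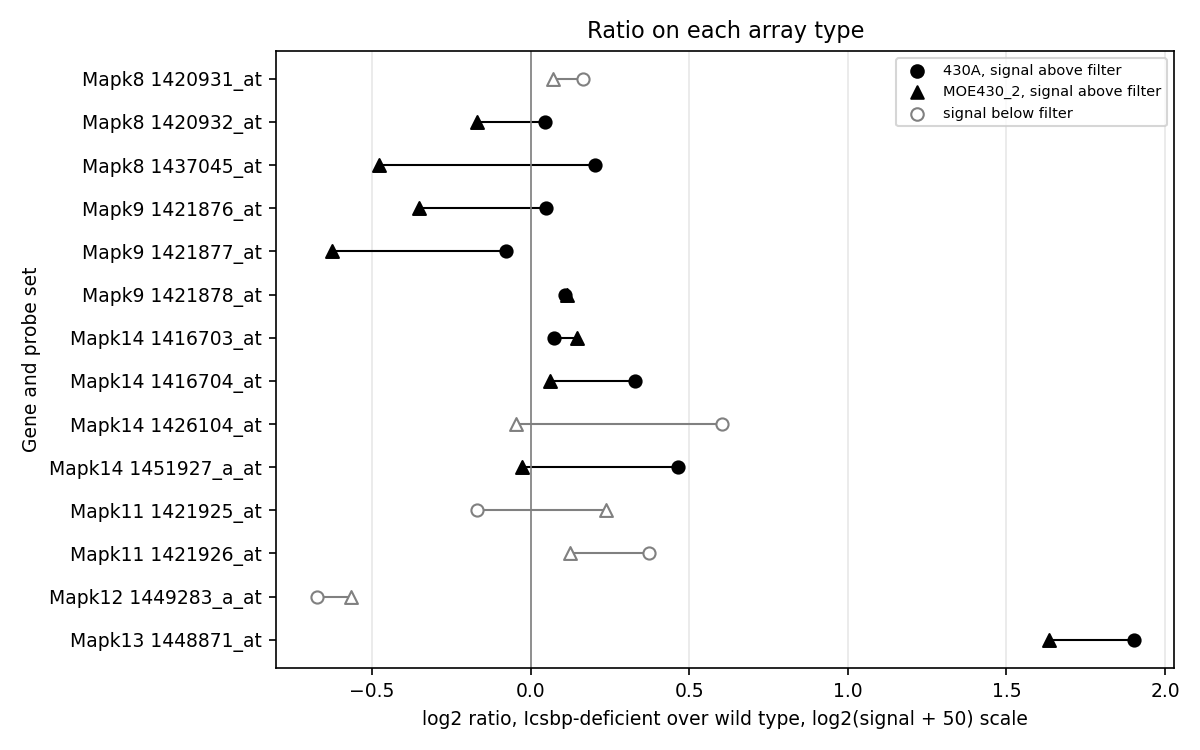
Log2 ratio of Icsbp-deficient over wild type (horizontal axis, log2 of signal plus 50) for each MAP kinase probe set on the 430A (circle) and MOE430_2 (triangle) arrays, joined by a line. Grey open symbols are probe sets with signals below the filter. Mapk13 lies at 1.90 and 1.63, apart from the tested Mapk8, Mapk9 and Mapk14 probe sets, whose means run from -0.35 to 0.22.

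Leaving Mapk13 aside, 0 of the 8 tested probe sets, from Mapk8, Mapk9 and Mapk14, passed the limma test, and 0 had an unadjusted p under 0.05. Over all 13576 tested probe sets 5.13% were called, and 18.6% had an unadjusted p under 0.05, so a count of 0 among 8 is near the background. Their median ratio was 0.02 (all tested probe sets -0.01). On the 430A arrays 7 of the 8 were positive and on the MOE430_2 arrays 3 were, with 4 of the 8 having the same sign on both (62.8% of all tested probe sets). Their 95% intervals lay between -0.74 and 0.60, which leaves room for changes of up to that size.

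The other genes of the cascade were taken from 7 lists of 90 genes, of which 69 had a named probe set and 54 were tested. Of these, 0 rose and 3 fell, or 5.56%, against 5.6% of all 7820 tested genes. The median ratio of the 54 was 0.01 (all tested genes -0.01). The genes that fell were Rps6ka3, Pebp1 and Mef2d.

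Rps6ka3 encodes the ribosomal S6 kinase RSK2, which ERK activates. Its probe set 1455206_at read 1856 in wild type against 668 in Icsbp-deficient GMP on 430A, and 1201 against 716 on MOE430_2. The wild type array was the higher on both types, and Rps6ka3 fell by 1.05 ± 0.18 on the log2 scale (2.08-fold, limma adjusted p = 0.00937). The probe set 1427299_at was called lower as well, at 601 and 205 on 430A and 330 and 187 on MOE430_2, while the dimmer 1452383_at gave -0.14 (adjusted p = 0.770).

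Pebp1 encodes a binding protein that restrains the ERK cascade. It read 8772 and 6453 on 430A and 9283 and 7797 on MOE430_2, wild type first, and fell by 0.46 ± 0.09 (limma adjusted p = 0.0193). Its other probe set gave -0.39, with an adjusted p of 0.0592. Mef2d, a transcription factor that p38 kinases phosphorylate, read 1150 and 784, then 1058 and 638, and fell by 0.60 ± 0.14 (limma adjusted p = 0.0393). Its other probe set gave -0.06 (adjusted p = 0.905), so the call rests on 1 of its 2 probe sets. The Pebp1 and Mef2d calls ended without the filter on low signals, where Rps6ka3 was the 1 gene left, and all 3 ended without the intensity trend or without array type as a block. The Pebp1 call also ended with scaling alone, and the Mef2d call with an offset of 16 and with quantile normalization over all 4 arrays.

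**Figure D3:**
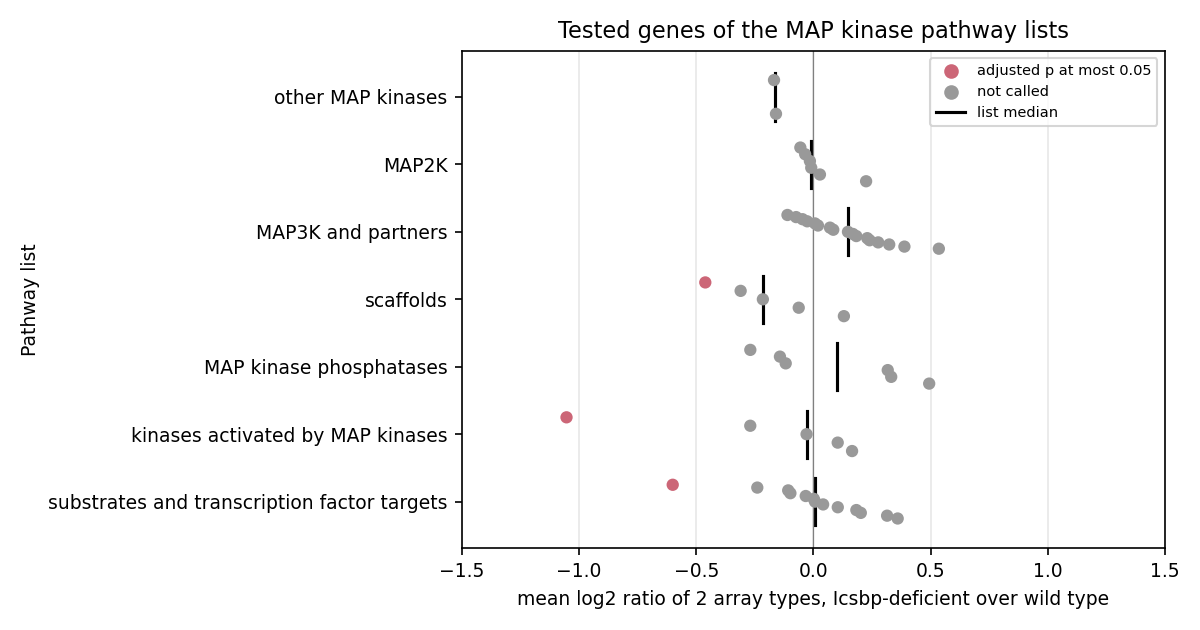
Mean log2 ratio over the 2 array types (horizontal axis) of the 54 tested genes in the 7 pathway lists, 1 point a gene, with the list median as a black bar. Red points passed the limma test: Rps6ka3 at -1.05, Mef2d at -0.60 and Pebp1 at -0.46. The medians of the lists lie between -0.22 and 0.15.

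The MAP2K genes encode the kinases that phosphorylate MAP kinases, and 0 of 6 tested members passed. Map2k3, which activates p38 kinases, read 1259 and 1401 on 430A and 1162 and 1423 on MOE430_2, a ratio of 0.23 ± 0.13 (limma adjusted p = 0.416), and its other probe set gave 0.33 (adjusted p = 0.285). Map2k6, the other main p38 activator, was at -0.04 ± 0.18 (adjusted p = 0.943), and Map2k4, which activates JNK kinases, at -0.01 ± 0.15 (adjusted p = 0.973). The other Map2k4 probe set gave 0.11 (limma adjusted p = 0.779). Among the MAP3K genes and partners, the first tier of the cascade, 0 of 17 passed, with a list median of 0.15. Of the MAP kinases outside the family described here, Mapk6, at -0.17, and Nlk, at -0.16, were tested, and 0 of these 2 passed. Mapk7 and Mapk10 lay below the filter. Of 5 tested scaffold and binding proteins, Pebp1 was the 1 that fell, against 2.34% of all tested genes.

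The MAP kinase phosphatases switch the kinases off, and 0 of 6 tested genes passed. Dusp1, which acts on p38 and JNK, read 82.3 and 119 on 430A and 100.4 and 126 on MOE430_2, for a ratio of 0.32 ± 0.21 (limma adjusted p = 0.475). Dusp10 and Dusp16 lay below the filter. Of the kinases that MAP kinases activate, Mapkapk2, the best known p38 alpha target, was at 0.17 ± 0.13 (adjusted p = 0.562). Eef2k, an elongation factor kinase that p38 delta can phosphorylate, was at 0.04 ± 0.16 (adjusted p = 0.921). Rps6ka3 was the 1 of 5 tested kinases of this kind that fell, and Mef2d the 1 of 13 substrates and transcription factors. Of all tested genes 2.34% fell, and 1 call in so short a list describes that gene and not the list. Signals in these lists measure transcripts and not kinase activity.

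The 5 genes whose pair of ratios lay nearest to that of Mapk13, by Euclidean distance over the 2 array types among 7819 genes, were Cnn3, Dhrs3, Mocos, F10 and Rtp4. The distance was 0.04 for Cnn3, which encodes a calponin, and 0.25 for Rtp4. Cnn3 had ratios of 1.91 and 1.67, with signals of 546 and 2186 on 430A and 761 and 2497 on MOE430_2. Dhrs3, a retinal reductase gene, had ratios of 1.83 and 1.77, and F10, the gene of coagulation factor X, 1.76 and 1.52. Mocos, at 12.6 and 197 then 58.9 and 246, and Rtp4, at 15.6 and 180 then 43.9 and 285, shared with Mapk13 a low wild type signal. Likeness over 2 ratios is a description, and many genes can match on so few points.

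**Figure D4:**
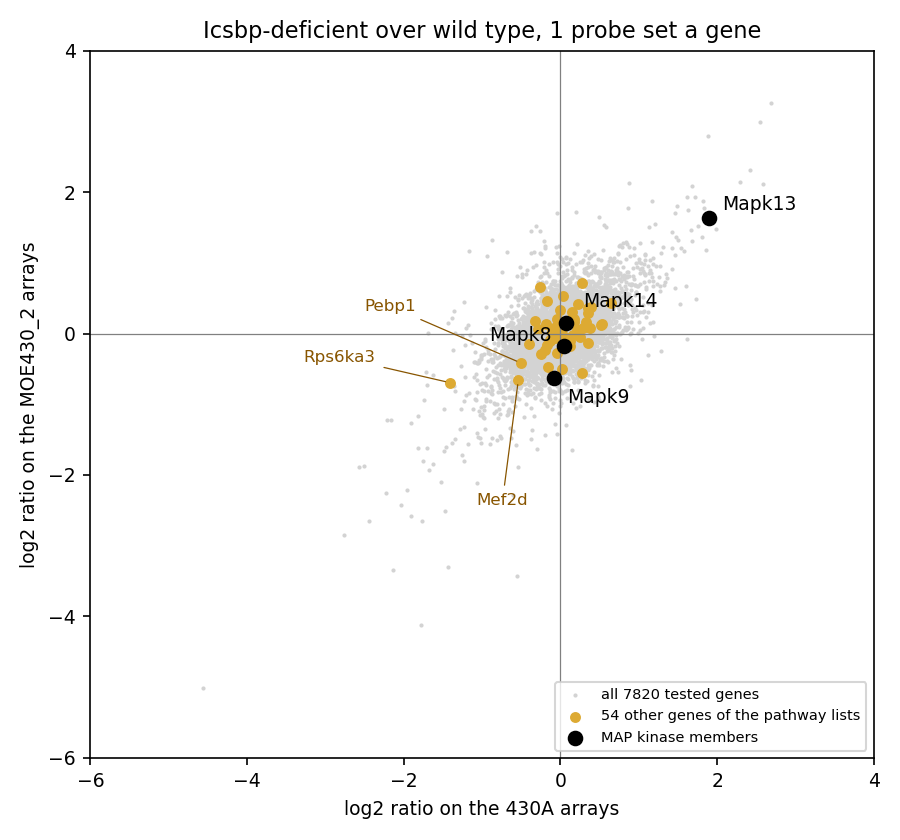
Log2 ratio of Icsbp-deficient over wild type on the 430A (horizontal) and MOE430_2 (vertical) arrays for all 7820 tested genes, 1 probe set a gene. Black points are Mapk8, Mapk9, Mapk13 and Mapk14, and yellow points are the 54 tested pathway genes. Mapk13 lies at 1.90 and 1.63, in the upper right, and the other 3 MAP kinases lie near the centre.

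Of the 6 nearest protein-coding neighbours of the Mapk14 and Mapk13 pair, 2 had a named probe set. Srpk1, a splicing factor kinase gene, was at -0.36 ± 0.14 (limma adjusted p = 0.205), and Slc26a8, below the filter, had ratios of -0.51 and -0.54. Beside Mapk11 and Mapk12, Ppp6r2 was at 0.18 ± 0.21 (limma adjusted p = 0.706) and Plxnb2, below the filter, was at -0.63 and -1.45. Brpf3, Pnpla1 and Bnip5, on the Mapk13 side of its pair, had no named probe set, so the measured neighbours of that pair were on the Mapk14 side. Mapk13 was picked for its rise, so its ratio is not set against those of Srpk1 and Slc26a8. It is given beside that of Mapk14 above without a test.

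Markers of other cell stages moved along with the genotype. Of 13 measured neutrophil granule and related genes 9 rose and 0 fell, against 3.26% of all tested genes rising, and 0 lay below the filter. On 430A their signals summed to 12060 in wild type against 35850 in Icsbp-deficient GMP, and on MOE430_2 to 21610 against 68100. The brightest probe sets, those of S100a8 and S100a9, made up most of each sum, so it does not describe the 13 genes evenly. Of the eosinophil, basophil and mast cell genes 12 had a probe set, 8 were tested, and all 8 fell, against 2.34% of all tested genes. The filter takes the mean over both genotypes, so this count leans towards genes bright in wild type. Fcer1a, at 51.5 and 24.9 in Icsbp-deficient GMP, passed it only through the wild type arrays. Ms4a2, at 129 and 35.9, lay close to the filter in Icsbp-deficient GMP. Prg3, Il5ra, Cma1 and Tpsb2 lay below the filter, with mean ratios of -1.31, 0.07, 0.17 and 0.11. The median ratio of the 12 was -1.45. Of 8 tested monocyte and macrophage genes 2 rose and 2 fell, or 50% called, against 5.6% of all tested genes. Ccr2 rose by 1.43 and Cd68 by 1.03 on the log2 scale, while Klf4 fell by 2.74 and Ly86 fell by 4.79. Klf4 (56.2 and 34.4 in Icsbp-deficient GMP) and Ly86 (15.6 and 9.46) passed the filter only through the wild type arrays. The median ratio of the 8 was -0.07 although these members moved in opposite directions. The part of these cell stages in the Mapk13 values was not tested.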

How the data were processed

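Signal intensities, 1 per probe set and on a linear scale, were deposited by the authors. The submitters' processing notes name GCOS for the MOE430_2 arrays, without a version. Per the labels' protocols, cRNA came from an ENZO kit for the Icsbp-deficient 430A sample and from a one-cycle kit on MOE430_2; for the wild type 430A sample no kit is named. The trimmed mean (2% from each end) of the deposited intensities was 498 for wild type and 167 for Icsbp-deficient on 430A, against 160 and 159 on MOE430_2. Each array was therefore scaled to 500 over 22626 shared probe sets, with 64 controls left out. Then 50 was added, log2 taken, and the arrays of a type quantile normalized over the shared probe sets.

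Differences were tested two-sided with limma 3.58.1 (R 4.3.3), with array type as a blocking term and a variance trend on intensity, over 13576 probe sets at or above the 40th percentile of mean signal. Benjamini-Hochberg adjustment ran over all of them, with a threshold of 0.05. Each probe set had 1 residual degree of freedom and 8.89 prior ones estimated across probe sets, so the number of arrays limits the precision. Errors beside a p are moderated standard errors. On simulated data of this design the fit recovered nearly all changed probe sets, but in most simulated tables the share of false calls was above the threshold set, so the adjusted p-values may be too small. Where a gene in a list had several tested probe sets, the brightest on average stood for it. Of the shared probe sets 20380 had 1 symbol, 691 several and 1555 none, and 20351 were updated through the RefSeq table of GRCm38.p6.

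The members and lists were chosen with earlier results of these data known. Named genes were the members, the called pathway genes with a few fixed regulators (some of which are not analysed here), the 5 genes nearest to Mapk13, and the 3 nearest protein-coding genes on each side of the p38 pairs. Of the marker lists, 2 of 11 GMP genes rose and 1 fell. Of 6 tested erythroid genes 0 rose and 2 fell, and of 3 lymphoid genes 0 rose and 1 fell. Of all tested genes 3.26% rose and 2.34% fell. Car1, at 43.1 and 2.52 in Icsbp-deficient GMP, and Gzmb, at 52.7 and 6.31, passed the filter only through the wild type arrays. Alternatives were other normalizations, offsets, filters and variance models, leaving out each array, and each array type alone.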

Additional observations from a re-analysis of the deposited data

How the results depend on the processing

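The count of 0 called genes for Mapk8, Mapk9 and Mapk14 was the same in the alternative fits that kept every array, with limma adjusted p no lower than 0.246. Over all tested genes 0 were called without scaling and 1 without the block, so a count of 0 in those fits says little. Mapk13 was higher in Icsbp-deficient GMP under every other normalization and offset, without the block, with each array left out and on either array type. Both Icsbp-deficient arrays read above both wild type arrays, so an array left out, no block or either type alone could not reverse this. Mapk13 was also picked for its rise, so its direction in these settings is a description and no support. The filters and the variance trend were not applied to the Mapk13 ratio. Its mean log2 ratio was 2.52 with an offset of 16, 2.01 with a floor of 50 and 0.92 without any scaling, where all tested probe sets had a median of -0.65. It ran from 1.40 to 2.13 when each array was left out in a model without the block. The called pathway genes numbered 1 without the filter, 0 without the intensity trend, 0 without the block, 0 with no scaling at all and 0 when any array was left out. Over all probe sets 696 were called in the reported fit, 266 without the filter, 267 without the trend, 1 without the block, 0 with no scaling at all and 37 to 55 when an array was left out. Over genes these counts were 438, 180, 172, 1, 0 and 27 to 36. Without any scaling 28 probe sets had an unadjusted p under 0.05.

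Of the genes tested, the ratios of Mapk8, Mapk9 and Mapk14, none of which had passed, were followed for a change of sign. Without scaling the reversed ratios were -0.66, -0.58 and -0.50 for Mapk14 1416703_at, 1416704_at and 1451927_a_at and -0.40 for Mapk9 1421878_at. In that setting the median ratio of all tested probe sets was -0.65. Arrays were left out in a model without the block, so the genotypes were then not matched for array type. On 1 array type alone they were -0.029 for Mapk14 1451927_a_at (MOE430_2), and 0.045 and 0.20 for Mapk8 1420932_at and 1437045_at and 0.050 for Mapk9 1421876_at (430A). With an array left out, the ratio ran from -0.33 to 0.72 for Mapk14 1416704_at, -0.21 to 0.65 for Mapk14 1451927_a_at, -0.54 to 0.42 for Mapk8 1420932_at, -0.66 to 0.38 for Mapk8 1437045_at, -0.53 to 0.23 for Mapk9 1421876_at and -0.074 to 0.29 for Mapk9 1421878_at. The cause was not tested.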
